A study of Mus musculus with 12 samples.

Results

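The T, NK and innate lymphoid cell genes described here are 39 marker genes, taken by their symbols from the 37775 genes of the count table. All 39 were in the table, and all 39 were among the 22118 genes that passed the filter on low counts. They were listed with it already known that T cell receptor genes were high in the classical monocytes of these libraries, so comparisons with classical monocytes are given below as a description. Calls of the fit appear for them only as counts beside the share of all genes called, with no p-value, and nothing is read from them. Bulk RNA-seq was performed on 4 fractions of monocyte-macrophage lineage cells (Mo-Macs), with 3 libraries for each fraction. They were sorted on day 5 from the ear skin of male WT BALB/c mice aged 7 to 12 weeks, in which 300 μg of anti-TNP IgE and then 10 μg of TNP-OVA had elicited IgE-mediated chronic allergic inflammation (IgE-CAI). Cells were gated as CD45+CD11b+SiglecF-Ly6G- and divided into Ly6ChiPD-L2lo classical monocytes, Ly6ChiPD-L2hi early classical monocyte-derived macrophages (CMDMs), Ly6CloPD-L2hi late CMDMs and Ly6CloPD-L2lo resident-like macrophages. The flow cytometric definition of Mo-Macs in the study's methods also has F4/80+, and the account of the sort for sequencing does not say whether that step was used. No T or NK cell marker is named in either description. All fractions came from challenged skin, each library from 5000 to 80000 cells, and the labels do not say that libraries of a fraction came from separate mice, so p-values measure the spread between these libraries.

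T cells recognise antigen through a receptor made of an alpha and a beta chain or of a gamma and a delta chain, and both kinds signal through the CD3 chains. Receptor genes are assembled by rearrangement in T cells, but NK and innate lymphoid cells can transcribe unrearranged receptor loci, so that constant region RNA alone does not mark a T cell. NK cells lack such a receptor and kill, as CD8 T cells do, with perforin and granzymes, whereas type 2 innate lymphoid cells depend on GATA3 and respond to IL-33 through the receptor encoded by *Il1rl1*. Mouse skin holds resident gamma-delta T cells in the epidermis and innate lymphoid cells, and NK cells carry CD11b on their surface.

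Total counts per library lay between 12537178 and 19844113, and 3 counts corresponded to 0.151 to 0.239 in CPM, the count scaled to a common library size. Of the 468 values of the members, 3 rested on 3 counts or fewer and none was 0. A limit in counts of this kind covers counting error only. The study's account of these libraries names no molecular identifiers, so copies of 1 molecule may have been counted more than once. The monocyte and macrophage markers were present in all 4 fractions, with a summed CPM of 7945 ± 1154 in classical monocytes, 3013 ± 552 in early CMDMs, 6679 ± 490.2 in late CMDMs and 9755 ± 645 in the resident-like fraction (SD, n = 3). The 6 keratinocyte markers summed to 22744 ± 5184 in early CMDMs and to between 2430 and 3290 on average in the other fractions. CPM values below are scaled with TMM, which takes most genes as unchanged. Scaling each library instead by 10 pan-leukocyte genes moved the median of all genes by 1.86 on the log2 scale in early CMDMs against classical monocytes, by -0.91 in late against early CMDMs, by 0.95 in late CMDMs against classical monocytes, by -0.78 in resident-like macrophages against late CMDMs, by -1.69 in resident-like macrophages against early CMDMs and by 0.17 in resident-like macrophages against classical monocytes. A fold change of a member therefore differs between both scalings by about these amounts, and its direction is given under both where it flips. Orders of CPM between fractions are those under TMM unless stated. In bulk samples, fewer cells of a type and less RNA per cell cannot be told apart.

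Most members were highest in classical monocytes. In 31 of 39 members, all 3 classical monocyte libraries lay above all 9 other libraries, against 7.98% of all genes tested. Under the pan-leukocyte scaling, added after the data had been seen, this held for 27 members, and *Trbc2*, *Trdc*, *Tcf7* and *Lef1* were no longer apart. The other 8, which did not meet it under TMM, were *Cd4*, *Thy1*, *Klrb1c*, *Foxp3* and the 4 type 2 innate lymphoid members. Classes differed in how far classical monocytes stood above the fraction next to them. The ratio of the classical monocyte mean to the highest mean of the other fractions had a median of 17.5 over the 11 NK and cytotoxic members, 10.3 over the 6 alpha-beta T members, 6.22 over the 13 members of the T cell receptor complex, its signalling and pan-T genes, and 3.47 for *Trdc*, the only gamma-delta member. It was between 0.23 and 0.782 for the 4 type 2 innate lymphoid members. Calls of edgeR's quasi-likelihood test at an adjusted p under 0.05 (Benjamini-Hochberg) are given for these comparisons as counts only, because the list was made with this contrast known. In early CMDMs against classical monocytes 35 members were lower (20.6% of all genes tested were lower) and 2 were higher (24.2% were higher). In late CMDMs against classical monocytes 36 were lower (background 17.5%) and 0 were higher (background 18.1%, and 0 also at an unadjusted p under 0.05 and with DESeq2). In resident-like macrophages against classical monocytes 33 were lower (background 12.9%) and 2 were higher (background 10.8%), of which 1 remained without resident-like replicate 2, without classical monocyte replicate 2 or 3, or by library size alone. The median log2 fold change of the 39 members was -3.45, -3.60 and -2.82 in these comparisons, where that of all genes tested was -0.01, -0.01 and 0.00.

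**Figure D1:**
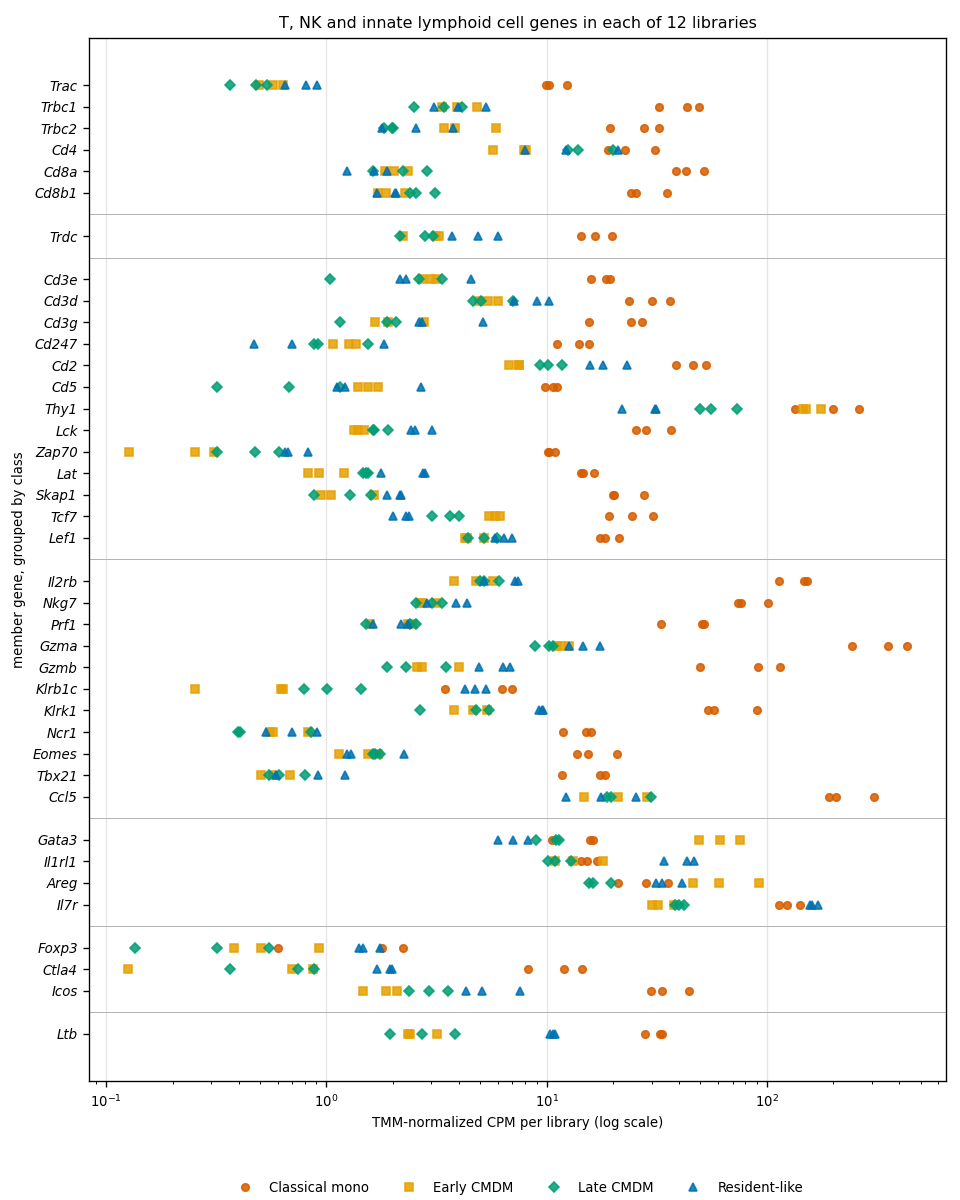
CPM (log scale, TMM-normalized) of the 39 members in each of the 12 libraries, grouped by class, with 3 points for each fraction. The orange points of classical monocytes lie to the right of all others in 31 rows, and the 4 type 2 innate lymphoid members are among the exceptions.

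**Figure D2:**
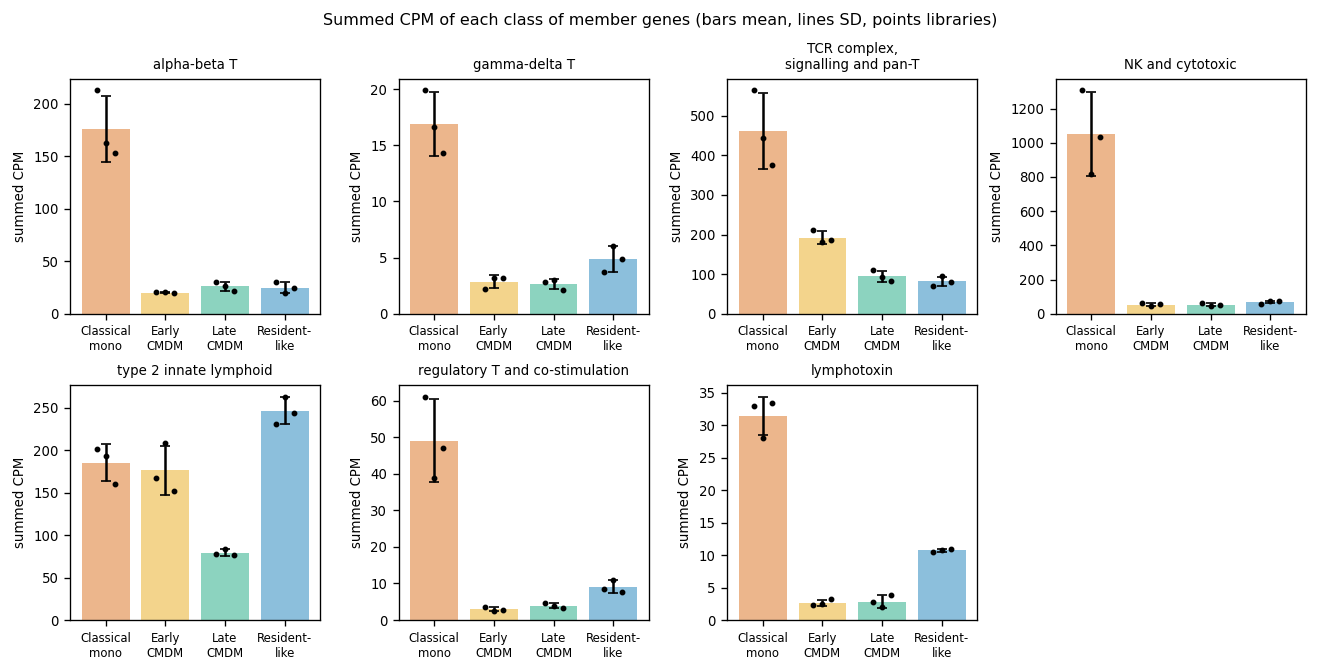
Summed CPM of each class of members by fraction (bars are means, lines are SD, points are the 3 libraries). The NK and cytotoxic sum was 1051 ± 246 in classical monocytes and 53.9 to 69.2 on average elsewhere, whereas the type 2 innate lymphoid sum was highest in resident-like macrophages under TMM, at 246 ± 15.9, and in early CMDMs under the pan-leukocyte scaling. *Il7r* made up 162 ± 7.09 CPM of the resident-like sum, while *Gata3* was lowest in that fraction, at 7.07 ± 1.09.

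The constant region of the T cell receptor alpha chain, *Trac* (chromosome 14), had a CPM of 12.4, 10.3 and 9.92 in classical monocytes, 0.495, 0.569 and 0.633 in early CMDMs, 0.478, 0.365 and 0.539 in late CMDMs and 0.809, 0.91 and 0.647 in resident-like macrophages. The first of these groups lay above all others, and the remaining 9 libraries were all under 1 CPM, on 6 to 15 counts each. The beta chain has a pair of constant regions on chromosome 6, and *Trbc1* had a CPM of 49.4, 43.2 and 32.4 in classical monocytes, 3.9, 4.81 and 3.36 in early CMDMs, 3.42, 4.13 and 2.49 in late CMDMs and 3.07, 5.28 and 3.94 in resident-like macrophages. *Trbc2* had 32.4, 27.8 and 19.5 in classical monocytes, 3.83, 5.88 and 3.42 in early CMDMs, 1.99, 2.01 and 1.82 in late CMDMs and 1.78, 2.55 and 3.77 in resident-like macrophages. Both were high in the same libraries as *Trac*. Their coding sequences were 95.6% identical (23 of 518 bases differed), and 22 of the 23 differences fell in bases 379 to 518. The remaining difference was at base 260, and bases outside the coding sequence were not compared. Reads of the coding sequence that cover no difference could be assigned to either gene. Bases 379 to 518 of the coding sequence in the reference transcripts (GENCODE M21, GRCm38) are printed here with the differing bases in capitals.
Trbc1: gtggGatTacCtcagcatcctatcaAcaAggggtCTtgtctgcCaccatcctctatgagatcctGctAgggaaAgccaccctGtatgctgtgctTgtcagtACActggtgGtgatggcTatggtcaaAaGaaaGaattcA
Trbc2: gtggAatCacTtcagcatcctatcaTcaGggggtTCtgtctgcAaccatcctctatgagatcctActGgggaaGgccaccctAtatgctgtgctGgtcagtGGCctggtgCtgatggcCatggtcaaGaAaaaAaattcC
The coreceptor genes fell into a pair of patterns. *Cd8a*, which encodes a chain of the class I coreceptor, had a CPM of 52, 38.8 and 43.1 in classical monocytes, 2.35, 2.02 and 1.84 in early CMDMs, 2.23, 2.86 and 1.62 in late CMDMs and 1.24, 1.64 and 1.88 in resident-like macrophages, and *Cd8b1*, the other chain, had a mean of 28.2 ± 6.08 in classical monocytes (SD, n = 3) against 1.94 to 2.68 elsewhere. *Cd4*, the class II coreceptor that some mouse dendritic cells and macrophages also carry, had a CPM of 31.1, 19 and 22.7 in classical monocytes, 7.92, 5.69 and 8.04 in early CMDMs, 20.1, 13.9 and 12.5 in late CMDMs and 21, 7.95 and 12.3 in resident-like macrophages. Its late CMDM and resident-like libraries overlapped those of classical monocytes, which no other alpha-beta member showed under TMM, and under the pan-leukocyte scaling late CMDMs had its highest mean.

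Receptor segments outside the list were taken by symbol, and their counts do not tell rearranged from unrearranged RNA. The 165 alpha segments summed to 34.8, 29 and 29.1 CPM in the classical monocyte libraries and to no more than 2.79 in any other library. The 38 beta segments summed to 52.3, 43.7 and 39.2 CPM in classical monocytes and to no more than 2.85 elsewhere. Reads of near-identical segments could be split among them, so that single segments are uncertain.

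The gamma-delta member *Trdc*, the delta constant region on chromosome 14, had a CPM of 19.9, 16.6 and 14.3 in classical monocytes, 2.23, 3.16 and 3.23 in early CMDMs, 2.79, 3.04 and 2.16 in late CMDMs and 3.72, 6.01 and 4.88 in resident-like macrophages. Classical monocytes were highest, resident-like macrophages lay above the remaining 2 fractions without overlap, and early and late CMDMs overlapped each other. With the pan-leukocyte scaling early CMDMs overlapped classical monocytes instead and lay above resident-like macrophages, which overlapped late CMDMs. Because the scaling cancels within a library, the share of *Trdc* in the sum of *Trac* and *Trdc*, each divided by the length of its longest transcript (3865 and 935 bases), was compared. It was 28, 27.9 and 25.8% in classical monocytes, 52.1, 57.3 and 55.2% in early CMDMs, 58.5, 66.8 and 49.2% in late CMDMs and 52.7, 61.5 and 64.6% in the resident-like fraction. All 9 libraries of the latter fractions were above the 3 of classical monocytes, while the latter fractions overlapped one another. The size of the share depends on the length used, and on counts alone it was 60.7% in classical monocytes and 83.4 to 85.8% on average elsewhere.

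Gamma and delta segments were rarer. The 15 gamma genes summed to 11.4, 10.4 and 8.14 CPM in classical monocytes, 0.866, 1.2 and 0.253 in early CMDMs, 0.239, 0.182 and 0.27 in late CMDMs and 0.431, 2.79 and 0.412 in the resident-like fraction. The 8 delta segments summed to 6.89, 5.55 and 4.57 CPM in classical monocytes and to 0.593, 2.73 and 0.412 in resident-like macrophages. Within its fraction resident-like replicate 2 stood apart in both sums. In that library *Trgv5* and *Trdv4*, segments that the gamma-delta T cells of the mouse epidermis use, had 13 and 30 counts, against 0 and 0 for *Trgv5* and 2 and 2 for *Trdv4* in the other resident-like libraries. Other fractions held them too. *Trgv5* had 3, 9 and 3 counts in classical monocytes, 0, 4 and 0 in early CMDMs and 0, 1 and 0 in late CMDMs. *Trdv4* had 20, 41 and 18 in classical monocytes, 8, 11 and 0 in early CMDMs and 2, 4 and 3 in late CMDMs. Both segments were named after their values were seen. *Trdc* itself was 6.01 CPM in that library and 4.87 ± 1.14 over the fraction, so the counts of members called in resident-like macrophages are also given without it.

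**Figure D3:**
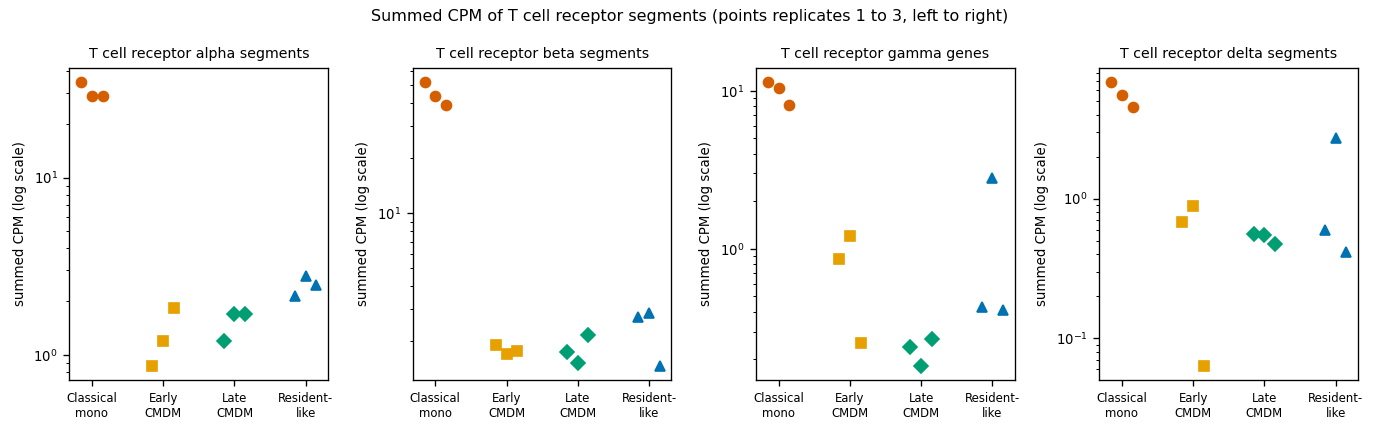
Summed CPM (log scale) of alpha, beta, gamma and delta receptor segments in each library, by fraction, with replicates 1 to 3 from left to right. The second resident-like point lies at 2.79 for the gamma genes and 2.73 for the delta segments, above the other points of its fraction.

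The CD3 chains, which carry the signal of both receptor kinds, followed the constant regions. *Cd3e* had a CPM of 18.7, 19.5 and 15.9 in classical monocytes, 2.97, 3.16 and 2.72 in early CMDMs, 1.04, 3.34 and 2.63 in late CMDMs and 2.16, 4.55 and 2.3 in resident-like macrophages. *Cd3d* had 36.3, 30 and 23.7 in classical monocytes, 5.44, 4.93 and 6.01 in early CMDMs, 7.01, 5.05 and 4.65 in late CMDMs and 9, 10.3 and 7.12 in resident-like macrophages. *Cd3g* had 27.2, 24.3 and 15.5 in classical monocytes, 1.67, 2.78 and 1.9 in early CMDMs, 2.07, 1.15 and 1.89 in late CMDMs and 2.64, 5.16 and 2.71 in resident-like macrophages. In each of these genes classical monocytes lay above all other libraries, and the highest resident-like value was in replicate 2. The zeta chain *Cd247* had a mean of 13.6 ± 2.22 CPM in classical monocytes and 0.997 to 1.23 in the other fractions. The proximal kinase *Lck* had a CPM of 36.9, 25.6 and 28.3 in classical monocytes, 1.48, 1.33 and 1.39 in early CMDMs, 1.91, 1.64 and 1.62 in late CMDMs and 2.43, 3.03 and 2.53 in resident-like macrophages. *Zap70*, the kinase that binds the phosphorylated chains, had 10.3, 10.1 and 10.9 in classical monocytes, 0.309, 0.253 and 0.127 in early CMDMs, 0.319, 0.608 and 0.472 in late CMDMs and 0.647, 0.667 and 0.824 in resident-like macrophages, where the 3 early CMDM libraries held 5, 4 and 2 counts. The adaptors *Lat* and *Skap1* had means of 15.2 ± 1.17 and 22.7 ± 4.43 CPM in classical monocytes and of 0.984 to 2.44 and 1.22 to 2.07 in the other fractions. Among surface genes, *Cd2*, an adhesion molecule of T and NK cells, had a mean of 45.8 ± 7.14 CPM in classical monocytes, 7.24 in early CMDMs, 10.4 in late CMDMs and 19 ± 3.79 in the resident-like fraction, and *Cd5* had 10.5 ± 0.674 against 0.716 to 1.68. The transcription factors *Tcf7* and *Lef1* had 24.7 ± 5.59 and 19.1 ± 1.98 CPM in classical monocytes. *Tcf7* was 5.82 ± 0.32 in early CMDMs, 3.55 ± 0.483 in late CMDMs and 2.22 ± 0.195 in the resident-like fraction, while *Lef1* was 4.59 to 6.40 in these 3 fractions.

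*Thy1* differed from the other pan-T members. Its CPM was 261, 199 and 135 in classical monocytes, 176, 146 and 150.3 in early CMDMs, 73.4, 55.6 and 49.6 in late CMDMs and 22, 31.3 and 31.2 in resident-like macrophages. Early CMDM libraries overlapped those of classical monocytes, and the other fractions lay below both. Scaled by pan-leukocyte genes, early CMDMs were highest and apart, and late CMDMs overlapped classical monocytes. *Thy1* is also a gene of fibroblasts, and the 6 fibroblast markers had the same order, with summed CPM of 4526 ± 1181 in classical monocytes, 3793 ± 697 in early CMDMs, 485 ± 12.2 in late CMDMs and 321 ± 41.7 in the resident-like fraction. No fibroblast marker was at 0 in any fraction, and their part in *Thy1* was not tested.

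The NK and cytotoxic members had the largest median ratio of the classes. *Gzma*, which encodes granzyme A, had a CPM of 432, 245 and 357 in classical monocytes, 11.6, 11.1 and 12.6 in early CMDMs, 10.7, 10.3 and 8.83 in late CMDMs and 12.7, 14.7 and 17.4 in resident-like macrophages. *Gzmb*, granzyme B, had 115, 49.7 and 91.2 in classical monocytes, 2.72, 2.59 and 3.99 in early CMDMs, 3.5, 2.31 and 1.89 in late CMDMs and 6.36, 4.91 and 6.83 in resident-like macrophages. The gene of perforin, *Prf1*, had 51.9, 33.2 and 51 in classical monocytes, 2.35, 1.58 and 2.47 in early CMDMs, 2.39, 1.52 and 2.56 in late CMDMs and 1.62, 2.18 and 2.35 in resident-like macrophages. Classical monocytes lay above every other library in these genes, and replicate 2 was the lowest of the classical monocyte libraries in each. The granule membrane gene *Nkg7* had a CPM of 101, 73.7 and 76 in classical monocytes, 3.15, 2.72 and 2.66 in early CMDMs, 2.55, 3.34 and 3.03 in late CMDMs and 2.86, 3.88 and 4.36 in resident-like macrophages. *Ncr1*, which encodes the NK cell receptor NKp46, had 15.9, 11.9 and 15.1 in classical monocytes, 0.557, 0.569 and 0.823 in early CMDMs, 0.398, 0.851 and 0.405 in late CMDMs and 0.701, 0.91 and 0.53 in resident-like macrophages. *Eomes*, a T-box factor of NK cells and CD8 T cells, had 15.4, 13.7 and 20.8 in classical monocytes, 1.55, 1.14 and 1.71 in early CMDMs, 1.67, 1.76 and 1.62 in late CMDMs and 1.24, 2.24 and 1.29 in resident-like macrophages. Here too the 9 other libraries were below classical monocytes, and their fractions overlapped. The related factor *Tbx21* had a mean of 15.9 ± 3.56 CPM in classical monocytes and 0.585 to 0.906 elsewhere. *Il2rb*, the beta chain of the IL-2 and IL-15 receptors, had 138 ± 20.8 against 4.75 to 6.60. *Klrk1*, the receptor NKG2D, had 67.2 ± 19.8 in classical monocytes, 4.6 ± 0.794 in early CMDMs, 4.32 ± 1.47 in late CMDMs and 9.47 ± 0.21 in the resident-like fraction. The chemokine gene *Ccl5*, expressed by activated T and NK cells and also by macrophages, had a CPM of 308, 206 and 191 in classical monocytes, 28.5, 14.8 and 21.2 in early CMDMs, 29.8, 18.8 and 19.7 in late CMDMs and 12.2, 25.5 and 17.6 in resident-like macrophages, and its fractions other than classical monocytes overlapped. Per kilobase of transcript, the levels in classical monocytes were 352 ± 95.4 CPM for *Ccl5*, 346 ± 94.2 for *Gzma* and 95 ± 17.3 for *Nkg7* (SD, n = 3).

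*Klrb1c*, an NK cell receptor gene of the lectin family, was the exception. Its CPM was 6.96, 3.46 and 6.3 in classical monocytes, 0.619, 0.632 and 0.253 in early CMDMs, 1.43, 0.79 and 1.01 in late CMDMs and 4.26, 4.73 and 5.3 in resident-like macrophages. The resident-like libraries lay within the range of classical monocytes, and both lay above the other fractions.

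The cytotoxic members were high in the same libraries, so the 250 bases before the start of each gene (RefSeq, GRCm38.p6, 27025 promoters, with 27 of the 39 members matched) were searched on both strands for 5 motifs of 6 letters. No matches in the members overlapped. The Runx motif TGTGGT was in 8 of the 27 (29.6%), against 14.2% of all promoters. These were *Lck*, *Klrb1c*, *Klrk1*, *Ncr1*, *Nkg7*, *Prf1*, *Gzma* and *Gzmb*. The T-box motif TCACAC was in 5 (18.5%, against 12.2%), namely *Lck*, *Ncr1*, *Nkg7*, *Gzmb* and *Il7r*. The Ets motif CCGGAA, the TCF/LEF motif CTTTGA and the GATA motif AGATAA were in 2 each (7.41%), against 12.2%, 14.0% and 10.3% of all promoters. A match of letters is a description, not a binding site. The promoters of 4 cytotoxic genes are shown 5′ to 3′ along the gene because each holds the Runx motif, and those of *Ncr1*, *Nkg7* and *Gzmb* hold the T-box motif as well. Capitals mark matches on either strand.
Gzma, chr13:113100982-113101231, - strand: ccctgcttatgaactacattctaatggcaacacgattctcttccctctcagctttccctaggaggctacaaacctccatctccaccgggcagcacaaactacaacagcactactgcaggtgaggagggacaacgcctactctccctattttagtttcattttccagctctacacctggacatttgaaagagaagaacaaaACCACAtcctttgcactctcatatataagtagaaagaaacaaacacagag
Gzmb, chr14:56262335-56262584, - strand: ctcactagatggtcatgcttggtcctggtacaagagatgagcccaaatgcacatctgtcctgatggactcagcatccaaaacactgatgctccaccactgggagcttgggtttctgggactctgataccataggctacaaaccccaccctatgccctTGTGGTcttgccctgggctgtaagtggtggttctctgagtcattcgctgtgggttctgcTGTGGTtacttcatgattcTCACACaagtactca
Ncr1, chr7:4337465-4337714, + strand: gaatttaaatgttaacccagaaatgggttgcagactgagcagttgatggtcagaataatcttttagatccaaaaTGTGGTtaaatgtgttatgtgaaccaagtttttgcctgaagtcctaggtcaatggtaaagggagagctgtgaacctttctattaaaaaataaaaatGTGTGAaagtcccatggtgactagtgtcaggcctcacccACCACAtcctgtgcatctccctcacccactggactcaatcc
Nkg7, chr7:43436888-43437137, + strand: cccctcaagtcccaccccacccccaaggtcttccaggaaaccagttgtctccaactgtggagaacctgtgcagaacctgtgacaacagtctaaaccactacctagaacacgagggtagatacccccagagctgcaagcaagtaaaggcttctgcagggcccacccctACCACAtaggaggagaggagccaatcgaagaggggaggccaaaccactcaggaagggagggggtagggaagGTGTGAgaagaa
In *Gzmb* the Runx motif began 93 and 34 bases before the start and the T-box motif 15 bases before it, and in *Ncr1* the Runx motif began 176 and 41 bases before the start.

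The type 2 innate lymphoid members did not share the pattern of the other classes, nor 1 pattern among themselves. *Gata3*, the transcription factor of type 2 lymphoid cells, had a CPM of 15.7, 16.2 and 10.6 in classical monocytes, 61.2, 75.2 and 49.1 in early CMDMs, 8.92, 11.4 and 11 in late CMDMs and 7.01, 8.19 and 6 in resident-like macrophages. *Areg*, which encodes the growth factor amphiregulin, had 28.2, 35.6 and 21.1 in classical monocytes, 60.9, 92 and 46.4 in early CMDMs, 16.2, 19.6 and 15.6 in late CMDMs and 33.5, 41.2 and 31.5 in resident-like macrophages. Both were highest in early CMDMs, without overlap with any other fraction. Keratinocytes also express both genes, and the 6 keratinocyte markers were highest in the same libraries, with a summed CPM of 23851, 27284 and 17096 in early CMDMs, 2716, 4049.9 and 1871 in classical monocytes, 3106, 3647 and 3118 in late CMDMs and 2298, 2615 and 2377 in the resident-like fraction. Within early CMDMs the highest *Gata3*, *Areg* and keratinocyte values were all in replicate 2 and the lowest all in replicate 3. No keratinocyte marker was at 0 in all 3 libraries of a fraction, and their part in these genes was not tested.

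*Il1rl1*, a chain of the IL-33 receptor, and *Il7r*, the IL-7 receptor alpha chain of lymphocytes, were highest in resident-like macrophages. *Il1rl1* had a CPM of 15.3, 16.9 and 14.3 in classical monocytes, 13.2, 10.9 and 18 in early CMDMs, 10.1, 12.9 and 10.9 in late CMDMs and 34.2, 43.4 and 46.9 in resident-like macrophages. *Il7r* had 142, 124 and 114 in classical monocytes, 31.9, 30.2 and 38.1 in early CMDMs, 42.2, 39.8 and 38.4 in late CMDMs and 157, 170.2 and 159.8 in resident-like macrophages. For *Il1rl1* the other 3 fractions were close to one another, whereas for *Il7r* classical monocytes stood between resident-like macrophages and the CMDMs without overlap. Scaled by pan-leukocyte genes, *Il7r* was still highest in resident-like macrophages, but *Il1rl1* had its highest mean in early CMDMs, which overlapped resident-like macrophages. Mast cells also express *Il1rl1*, and the 9 mast cell and basophil markers summed to 126, 66.4 and 87.4 CPM in resident-like macrophages and to no more than 64.6 in any other library. Within resident-like macrophages the highest mast cell and basophil sum and the lowest *Il1rl1* value were both in replicate 1. *Prss34* was at 0 in every library outside classical monocytes. The 7 dendritic cell markers summed to 752, 928 and 1005 CPM in resident-like macrophages, against no more than 179 in any other library. *Cd207*, the langerin gene of Langerhans cells, made up 819 ± 125 CPM of this sum (SD, n = 3). *Flt3* had means of 68.9 CPM in classical monocytes and 27.0 in resident-like macrophages, and *Ccr7* had 35.2 and 30.6. Against classical monocytes 1 of the 7 was higher in resident-like macrophages (10.8% of all genes tested) and 3 were lower (12.9%). No dendritic cell marker was at 0 in a whole fraction, and the part of these cells in *Il1rl1*, *Il7r*, *Ltb* and *Klrb1c* was not tested. The type 2 cytokine genes *Il4*, *Il5* and *Il13*, named after their values were seen, had means of no more than 0.641 CPM in every fraction.

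Of the regulatory T and co-stimulatory members, *Icos*, a co-stimulatory receptor of activated T cells, had a CPM of 44.5, 29.9 and 33.4 in classical monocytes, 1.86, 2.09 and 1.46 in early CMDMs, 3.58, 2.92 and 2.36 in late CMDMs and 5.07, 7.58 and 4.3 in resident-like macrophages. The inhibitory receptor *Ctla4* had 14.5, 8.25 and 12 in classical monocytes, 0.866, 0.126 and 0.696 in early CMDMs, 0.876, 0.365 and 0.742 in late CMDMs and 1.99, 1.7 and 1.94 in resident-like macrophages. *Foxp3*, the factor that defines regulatory T cells, had 2.22, 0.605 and 1.78 in classical monocytes, 0.928, 0.379 and 0.507 in early CMDMs, 0.319, 0.547 and 0.135 in late CMDMs and 1.46, 1.76 and 1.41 in resident-like macrophages. Low values rested on few counts. In early CMDMs *Ctla4* had 14, 2 and 11 counts and *Foxp3* 15, 6 and 8, and in late CMDMs *Foxp3* had 4, 9 and 2. *Icos* and *Ctla4* were highest in classical monocytes and next in resident-like macrophages, whereas for *Foxp3* these fractions overlapped. Under the pan-leukocyte scaling classical monocytes were still highest for *Icos* and *Ctla4*, resident-like macrophages overlapped early CMDMs in both, with the mean of *Icos* higher in early CMDMs, and *Foxp3* had its highest mean in early CMDMs. The lymphotoxin gene *Ltb*, expressed by lymphocytes and innate lymphoid cells, had a CPM of 32.9, 28 and 33.4 in classical monocytes, 2.35, 2.4 and 3.17 in early CMDMs, 2.71, 1.95 and 3.84 in late CMDMs and 10.4, 10.7 and 10.9 in resident-like macrophages. Classical monocytes were highest, and resident-like macrophages lay between them and the CMDMs, under both scalings.

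The comparisons without classical monocytes were tested gene by gene, with p-values adjusted over all 22118 genes. In late against early CMDMs, 5 members were lower (17.5% of all genes tested were lower) and 2 were higher (14.4% were higher). The median log2 fold change was 0.02 over the members and 0.02 over all genes tested. *Gata3* was 61.8 CPM on average in early and 10.4 in late CMDMs (log2 fold change -2.56 ± 0.19 (SE), adjusted p = 1.86e-07 by edgeR's quasi-likelihood test), and *Areg* was 66.4 and 17.2 (log2 fold change -1.95 ± 0.24 (SE), adjusted p = 3.1e-05). *Thy1* (log2 fold change -1.41 ± 0.22 (SE), adjusted p = 0.000212), *Trbc2* (log2 fold change -1.17 ± 0.30 (SE), adjusted p = 0.00709) and *Tcf7* (log2 fold change -0.70 ± 0.19 (SE), adjusted p = 0.00903) were lower as well. These 5 kept their call and direction under every alternative tried. *Cd4* (log2 fold change 1.10 ± 0.32 (SE), adjusted p = 0.0184) and *Cd2* (log2 fold change 0.52 ± 0.17 (SE), adjusted p = 0.0272) were higher in late CMDMs under TMM, but under the pan-leukocyte scaling neither was called, at log2 fold changes of 0.21 and -0.39. Both also lost the call without early CMDM replicate 2 or late CMDM replicate 1, *Cd4* without the filter on low counts, and *Cd2* without early CMDM replicate 1 or late CMDM replicate 2. Under the pan-leukocyte scaling 28 members were lower in late CMDMs and 0 were higher, where 70.2% of all genes tested were lower and 0.805% higher, so that the members' share was near that of all genes. Of the 11 NK and cytotoxic members edgeR called 0 (1 was higher at an unadjusted p under 0.05, and 1 by DESeq2).

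In resident-like macrophages against late CMDMs, 18 members were higher (12.7% of all genes tested were higher) and 3 were lower (15.4% were lower). The median log2 fold change was 0.59 over the members and 0.00 over all genes tested. The count depended on scaling and on single libraries. By library size alone it was 12 higher and 3 lower, where 8.4% of all genes tested were higher and 21.6% lower. Under the pan-leukocyte scaling it was 5 higher and 10 lower, where 2.32% of all genes were higher and 65.7% lower. It was 11 higher and 1 lower without late CMDM replicate 2, 10 higher and 1 lower without late CMDM replicate 3, and 13 higher and 2 lower without resident-like replicate 2. The 5 members that were higher in every alternative were *Il7r* (log2 fold change 2.01 ± 0.11 (SE), adjusted p = 2.78e-09 by edgeR's quasi-likelihood test), *Il1rl1* (log2 fold change 1.87 ± 0.17 (SE), adjusted p = 8.98e-07), *Ltb* (log2 fold change 1.92 ± 0.20 (SE), adjusted p = 2.3e-06), *Klrb1c* (log2 fold change 2.16 ± 0.31 (SE), adjusted p = 8.12e-05) and *Foxp3* (log2 fold change 2.15 ± 0.53 (SE), adjusted p = 0.00596). Their log2 fold changes under the pan-leukocyte scaling were 1.24, 1.09, 1.15, 1.39 and 1.38. *Foxp3* rested on few counts, with 4, 9 and 2 in the late CMDM libraries and 27, 29 and 24 in the resident-like libraries. *Thy1* was lower in every alternative (log2 fold change -1.08 ± 0.22 (SE), adjusted p = 0.00242). *Tcf7* (log2 fold change -0.68 ± 0.21 (SE), adjusted p = 0.0233) and *Gata3* (log2 fold change -0.57 ± 0.20 (SE), adjusted p = 0.043) were lower too. Both lost the call without late CMDM replicate 2 or 3 or resident-like replicate 3, *Tcf7* also without resident-like replicate 2, and *Gata3* also without early CMDM replicate 1 or resident-like replicate 1.

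The other 13 members that were higher in resident-like macrophages under TMM lost the call under the pan-leukocyte scaling. *Klrk1* (log2 fold change 1.15 ± 0.25 (SE), adjusted p = 0.00278 by edgeR's quasi-likelihood test), *Cd2* (log2 fold change 0.87 ± 0.16 (SE), adjusted p = 0.00063), *Icos* (log2 fold change 0.94 ± 0.24 (SE), adjusted p = 0.00864) and *Areg* (log2 fold change 1.04 ± 0.24 (SE), adjusted p = 0.00502) kept it in all other alternatives. *Trdc* (log2 fold change 0.86 ± 0.23 (SE), adjusted p = 0.00922) lost it also without late CMDM replicate 3, and *Ctla4* (log2 fold change 1.54 ± 0.42 (SE), adjusted p = 0.0125) without late CMDM replicate 2. *Gzmb* (log2 fold change 1.25 ± 0.35 (SE), adjusted p = 0.0161) lost it also without the filter on low counts and without late CMDM replicate 2 or 3 or resident-like replicate 1. *Cd3d*, *Cd3g*, *Cd5*, *Lck*, *Lat* and *Gzma* had log2 fold changes of 0.59 to 1.18 and lost the call by library size alone and, for each gene, on leaving out any of 3 to 5 libraries. Under the pan-leukocyte scaling the sign turned for *Cd3d* (-0.11), *Lck* (-0.14), *Lat* (-0.08) and *Gzma* (-0.19). Of the 6 alpha-beta T members edgeR called 0 (1 was higher and 1 lower at an unadjusted p under 0.05, and 0 by DESeq2).

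In resident-like macrophages against early CMDMs, 19 members were higher (21.4% of all genes tested were higher) and 4 were lower (25.1% were lower). By library size alone 13 were higher and 5 lower (14.7% and 32.0% of all genes), and under the pan-leukocyte scaling 2 were higher and 29 lower (1.25% and 91.0% of all genes). Without resident-like replicate 2 these were 16 and 5. The median log2 fold change was 0.48 over the members and 0.03 over all genes tested. The 2 members that were higher in every alternative were *Il7r* (log2 fold change 2.28 ± 0.11 (SE), adjusted p = 5.97e-10 by edgeR's quasi-likelihood test, with 0.60 under the pan-leukocyte scaling) and *Klrb1c* (log2 fold change 3.22 ± 0.35 (SE), adjusted p = 1.2e-06, with 1.54 under that scaling). *Gata3* (log2 fold change -3.13 ± 0.19 (SE), adjusted p = 5.84e-09), *Thy1* (log2 fold change -2.49 ± 0.23 (SE), adjusted p = 7.2e-07), *Tcf7* (log2 fold change -1.38 ± 0.20 (SE), adjusted p = 2.48e-05) and *Areg* (log2 fold change -0.91 ± 0.23 (SE), adjusted p = 0.00492) were lower in every alternative. *Ltb* (log2 fold change 2.01 ± 0.19 (SE), adjusted p = 3.54e-07) and *Ctla4* (log2 fold change 1.72 ± 0.42 (SE), adjusted p = 0.00337) lost the call under the pan-leukocyte scaling only. The other 15 turned sign under that scaling. These were *Cd4*, *Trdc*, *Cd3d*, *Cd2*, *Lck*, *Zap70*, *Lat*, *Skap1*, *Lef1*, *Il2rb*, *Gzmb*, *Klrk1*, *Il1rl1*, *Foxp3* and *Icos*, with log2 fold changes of 0.48 to 1.64 under TMM. *Il1rl1*, for example, was at log2 fold change 1.56 ± 0.17 (SE), adjusted p = 1.36e-06 under TMM by edgeR's quasi-likelihood test and at -0.09 under the pan-leukocyte scaling. *Trdc* (log2 fold change 0.76 ± 0.22 (SE), adjusted p = 0.0104) also lost the call without early CMDM replicate 1 or resident-like replicate 2, the library with most of the *Trgv5* and *Trdv4* counts of its fraction. These comparisons share fractions and are not independent of each other.

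**Figure D4:**
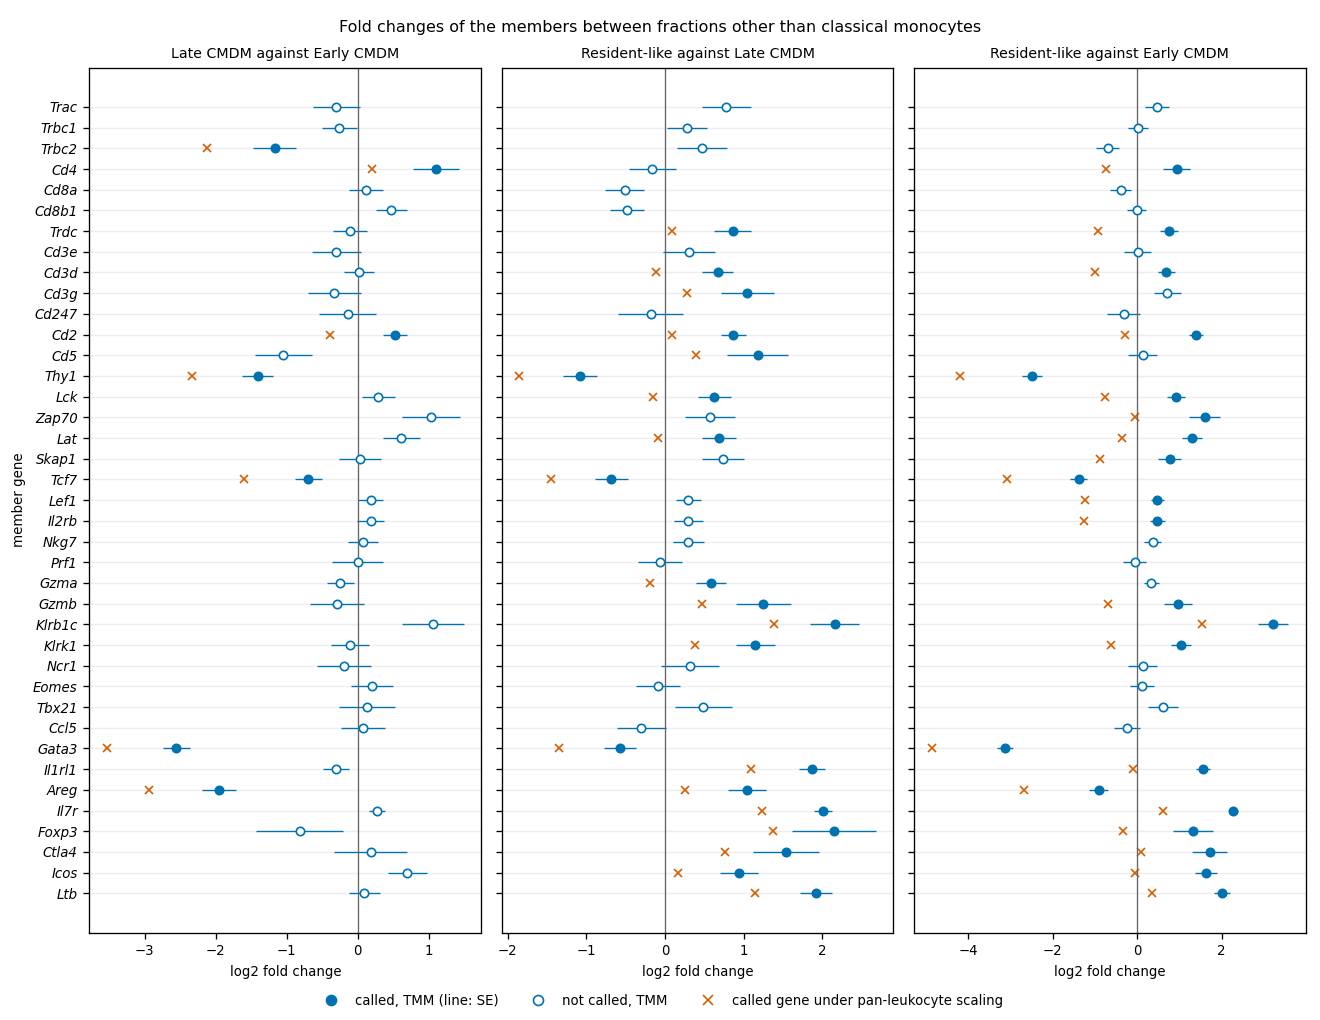
Log2 fold change of the 39 members in the 3 comparisons without classical monocytes under TMM, with SE as lines and called members filled, and under the pan-leukocyte scaling for called members. Under the latter *Il7r*, *Il1rl1*, *Ltb*, *Klrb1c* and *Foxp3* stay between 1.09 and 1.39 in resident-like macrophages against late CMDMs. *Foxp3* had only 2 to 9 counts in the late CMDM libraries.

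Ratios within a library do not depend on scaling. Those besides the *Trdc* share were chosen after values were seen and were not tested. The summed CPM of the 11 NK and cytotoxic members was 15.9, 11.1 and 18.7 times that of *Cd3d*, *Cd3e* and *Cd3g* in classical monocytes, 6.07, 4.15 and 5.21 times in early CMDMs, 6.4, 5.02 and 5.41 times in late CMDMs and 4.32, 3.75 and 6.01 times in the resident-like fraction. Classical monocytes thus lay above all others, and the other fractions overlapped. The share of *Cd8a* in the sum of *Cd8a* and *Cd4*, each per kilobase of its longest transcript, was 62.4, 67 and 65.3% in classical monocytes, 22.8, 26.1 and 18.5% in early CMDMs, 9.94, 16.9 and 11.4% in late CMDMs and 5.54, 17 and 13.2% in the resident-like fraction. Classical monocytes were highest, early CMDMs were next without overlap, and the Ly6Clo fractions overlapped. *Trdc* relative to the CD3 chains was 0.242, 0.224 and 0.259 in classical monocytes and 0.27, 0.3 and 0.403 in resident-like macrophages, and it ranged from 0.221 to 0.318 in the CMDM libraries, which overlapped both. The counts of the CD3 chains were 1.62, 1.39 and 1.01% of those of the 10 pan-leukocyte genes in classical monocytes, 0.729, 0.912 and 0.565% in early CMDMs, 0.362, 0.377 and 0.318% in late CMDMs and 0.291, 0.434 and 0.26% in the resident-like fraction. On this measure early CMDMs stood between classical monocytes and the Ly6Clo fractions without overlap. Dividing by these genes amounts to the pan-leukocyte scaling, so this order is not free of the choice of scaling. Under TMM the means of *Cd3d*, *Cd3e* and *Cd3g* were 5.46, 2.95 and 2.12 CPM in early CMDMs. In resident-like macrophages they were 8.81, 3.0 and 3.5.

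**Figure D5:**
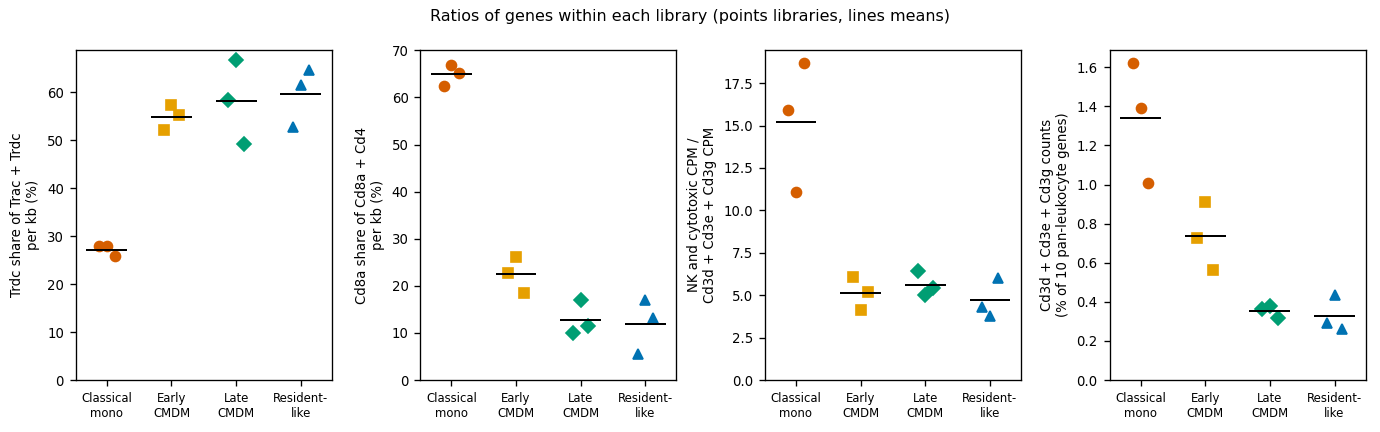
Ratios within each library by fraction, with a point for each library and a line for the mean. The *Trdc* share was 25.8 to 28% in classical monocytes, below all other libraries, and the NK and cytotoxic to CD3 ratio was 11.1 to 18.7 there, above all others.

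Other genes of these cell types were counted in lists that did not include the members, chosen with earlier results known, and nothing is read from their counts against classical monocytes. Of 22 further T cell genes, 19 were lower (20.6% of all genes tested) and 1 was higher (24.2%) in early CMDMs than in classical monocytes. The most abundant were *Lcp2*, *Fyn* and *Ets1*, and the kinase gene *Fyn* was at 148 ± 21.2 CPM in classical monocytes and 34.6 ± 3.5 in early CMDMs (SD, n = 3). *Lcp2* was at 143 ± 20.3 and 53.9 ± 14.4, and *Ets1* at 121 ± 14.8 and 34 ± 1.31. In resident-like macrophages *Lcp2* was at 133 ± 1.62, near its classical monocyte mean, *Fyn* at 67.7 ± 3.85 and *Ets1* at 15.1 ± 1.7. In resident-like macrophages against late CMDMs 7 of the 22 were higher (12.7% of all genes) and 2 lower (15.4%). All 16 further NK and cytotoxic genes were lower in both CMDM fractions than in classical monocytes (20.6% of all genes in early and 17.5% in late CMDMs), and 14 were lower (12.9%) and 1 was higher (10.8%) in resident-like macrophages. Their most abundant genes were *Cd7* (259 ± 62.5 CPM in classical monocytes and 16.5 ± 1.27 in resident-like macrophages), *Gzmc* (68.3 ± 30.3 and 2.64 ± 1.17) and *Cd244a* (33 ± 5.82 and 30.9 ± 2.18). Of 11 gamma-delta and IL-17 genes 9 were tested. In early CMDMs against classical monocytes 4 of these were higher (24.2% of all genes) and 5 lower (20.6%), and in resident-like macrophages against late CMDMs 3 were higher (12.7%) and 2 lower (15.4%). Counts this small over 9 genes are given as a description. The most abundant included *Maf* and *Zbtb16*, and *Maf*, also a macrophage gene, reached 356 ± 17.2 CPM in late CMDMs. Of 12 type 2 genes 7 were tested. In late against early CMDMs 4 of these were lower (17.5% of all genes) and 0 higher (14.4%). In early CMDMs against classical monocytes 2 were higher (24.2%) and 3 lower (20.6%), at a median log2 fold change of -1.01. *Rora* (283 ± 44.5 CPM) and *Hlf* (97.3 ± 12.7) were highest in early CMDMs, as *Gata3* and *Areg* were, and *Il2ra* was highest in classical monocytes at 14.8 ± 2.86. The keratinocyte markers were also highest in early CMDMs, and their part in *Rora* and *Hlf* was not tested. Of 7 further regulatory T genes, led by *Ikzf2*, *Tnfrsf18* and *Ikzf4*, 5 were lower in resident-like macrophages than in classical monocytes (12.9% of all genes). In early CMDMs against classical monocytes 3 were higher (24.2%) and 4 lower (20.6%). The mean of *Ikzf2* was 63.0 CPM in early CMDMs and 36.8 in classical monocytes, that of *Ikzf4* 13.0 and 8.24, and that of *Tnfrsf18* 21.5 and 34.6. Of 5 naive and memory T genes 3 were lower (12.9%) and 1 was higher (10.8%) in the same comparison, and *Satb1*, a chromatin organiser gene of T cells, was at 119 ± 16.4 CPM in classical monocytes and 12.5 ± 0.704 in resident-like macrophages.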

How the data were processed

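In 12 libraries, the authors trimmed reads with cutadapt 4.1 and mapped them with Bowtie2 2.4.5 to reference RNA of GRCm38, and the deposited values are raw counts per gene symbol without normalization. The members and lists were chosen with earlier results of these data known. All 39 members are described, and genes outside them are named as the 3 with the highest mean CPM of their list, with later choices marked and some genes not reported here.

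All 12 libraries were fitted in edgeR 4.0.16 (R 4.3.3) with TMM, the filterByExpr filter and robust quasi-likelihood, with a coefficient for each fraction. P-values were adjusted over 22118 genes by the Benjamini-Hochberg method with a threshold of 0.05. SEs were computed from the log2 fold change and its F statistic. The fit was tested on simulated data. No replicates were counted as duplicates, since chi-square per degree of freedom between their counts lay between 4.24 and 21.9. Transcript lengths were taken from GENCODE M21. Alternatives were RLE size factors, library size alone, scaling by 10 pan-leukocyte genes, DESeq2 1.42.0, no filter, a replicate block, fitting each comparison on its own 6 libraries, and leaving out each library.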

Additional observations from a re-analysis of the deposited data

How the results depend on the processing

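Under the alternatives, 3131 values of single genes, classes or all genes and 139 main counts and shares kept their direction and their side of the threshold or moved little, 117 kept their direction without a call, 31 and 10 moved further, and 23 reversed. All 23 reversals arose under the scaling by 10 pan-leukocyte genes, which by construction moves every log2 fold change of a comparison. In early CMDMs against classical monocytes *Cd4* was then at 0.0882 and *Foxp3* at 0.51, in late against early CMDMs *Cd2* at -0.39, and in late CMDMs against classical monocytes *Areg* at 0.24. In resident-like macrophages against late CMDMs *Cd3d* was at -0.11, *Lck* at -0.15, *Lat* at -0.0839 and *Gzma* at -0.19. Against early CMDMs *Cd4* was at -0.74, *Trdc* at -0.92, *Cd3d* at -0.99, *Cd2* at -0.30, *Lck* at -0.75, *Zap70* at -0.0459, *Lat* at -0.35, *Skap1* at -0.87, *Lef1* at -1.23, *Il2rb* at -1.25, *Gzmb* at -0.69, *Klrk1* at -0.62, *Il1rl1* at -0.0869, *Foxp3* at -0.33 and *Icos* at -0.0525. The members called in late against early CMDMs were 28 in place of 7. Over all genes that scaling called 20837 in place of 9925 in early CMDMs against classical monocytes, 15694 in place of 7045 in late against early CMDMs, 17102 in place of 7869 in late CMDMs against classical monocytes, 15047 in place of 6225 in resident-like macrophages against late CMDMs and 20411 in place of 10297 against early CMDMs. By library size alone, 28.0%, 31.5% and 24.1% of the calls in resident-like macrophages against late CMDMs, early CMDMs and classical monocytes were higher, in place of 45.1%, 46.0% and 45.7%.

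Leaving out each library in turn, the members called ranged from 36 to 37 in early CMDMs against classical monocytes, 5 to 8 in late against early CMDMs, 35 to 38 in late CMDMs against classical monocytes, 11 to 22 in resident-like macrophages against late CMDMs, 18 to 25 against early CMDMs and 34 to 36 against classical monocytes. The *Trdc* share ranged from 26.9 to 28.0% in classical monocytes, 53.7 to 56.3% in early CMDMs, 53.9 to 62.7% in late CMDMs and 57.1 to 63.0% in resident-like macrophages. The members apart in classical monocytes numbered 31 to 34. With the mean transcript length the *Trdc* share was 21.3% in classical monocytes, 46.7% in early CMDMs and 51.6% in resident-like macrophages, and on counts without length it was 60.7%, 83.4%, 84.9% in late CMDMs and 85.8%.

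With the replicate number as a block, 8 members were called in late against early CMDMs, 22 in resident-like macrophages against late CMDMs and 23 against early CMDMs. Deviations of same-numbered libraries correlated at -0.10 to 0.25 (median 0.06), with 4 of 18 pairs over 0.1, and 10 of 12 libraries correlated best with their own number, a hint from the data only, so that the replicate block was not taken as a pairing.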
